A study of Homo sapiens with 2 samples.

Results

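The sites described here lie in or near 6 imprinted genes, PEG10, GNAS, SNRPN, KCNQ1OT1, H19 and MEST, in a study of RNA crosslinked to the transcription factor SOX2. A site is an entry of the deposited lists, a short stretch of genome with a strand and a score. The lists come from RNA recovered with SOX2 after crosslinking, and how sites were called is not stated. Members were all sites that overlapped a fixed hg19 interval around each gene on a given strand, with no threshold on the score. The selection found 8 sites among 72794 in all: 2 of 16964 in replicate 1 and 6 of 55830 in replicate 2. All 8 lay in the GNAS interval, and the other 5 intervals held 0 sites on the selected strand in both replicates. What follows therefore describes GNAS, with the remaining genes as intervals in which no site was listed.

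Both libraries came from HEK293T cells, a human embryonic kidney line carrying the SV40 large T antigen, which had been transfected with a plasmid for FLAG-tagged SOX2. The cells took up 4-thiouridine at 0.2 mM for 16 hours, starting 24 hours after transfection, and were irradiated at 365 nm with 0.4 J/cm2. RNase T1 trimmed the RNA, and SOX2 with its crosslinked RNA was recovered on FLAG antibody beads (PAR-CLIP). The 2 libraries form 1 group, and the series design describes them as independent experiments. SOX2 was supplied from the plasmid, so the lists concern the tagged protein. No control library and no RNA abundance was used here, so a listed site cannot be told apart from background crosslinking of an abundant RNA.

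Imprinted genes are expressed mainly or solely from the copy inherited from one parent, a choice set by DNA methylation in the germ line. GNAS encodes the alpha subunit of the stimulatory G protein, which couples hormone receptors to adenylyl cyclase. The locus is complex: alternative first exons, used from differently imprinted promoters, give the neuroendocrine protein NESP55, the extra-large XL-alpha-s and the widely expressed Gs-alpha, and they splice onto common downstream exons. PEG10 is a paternally expressed gene derived from a retrotransposon, and MEST is a paternally expressed gene of the hydrolase fold family. SNRPN encodes the SmN protein of small nuclear ribonucleoproteins and shares its transcript with SNURF in the Prader-Willi region. H19 is a maternally expressed noncoding RNA and the host of miR-675. KCNQ1OT1 is a long noncoding RNA that begins inside KCNQ1, runs antisense to it, and silences neighbouring genes on the paternal chromosome.

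The GNAS interval (hg19 chr20:57414001-57487000, plus strand, 73 kb) held 2 sites in replicate 1 and 6 sites in replicate 2. The ratio of replicate 2 to replicate 1 was 3.00, and it was 3.29 over the whole lists. As a share of all listed sites, GNAS held 0.0113% ± 0.000737 (SD, n = 2). The shares of replicates 1 and 2, 0.0118% and 0.0107%, were close. They rest on 2 and 6 sites, so this closeness says little. The scale of such counts was read from windows of 73 kb laid end to end along both strands of chromosomes 1 to 22 and X. At least 2 replicate 1 sites were found in 4.40% of the 83016 windows, and at least 6 replicate 2 sites in 3.68% of them. Sites of both lists were present in 8.26% of the windows. These windows include stretches without genes, so they set a low level for a transcribed locus.

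**Figure D1:**
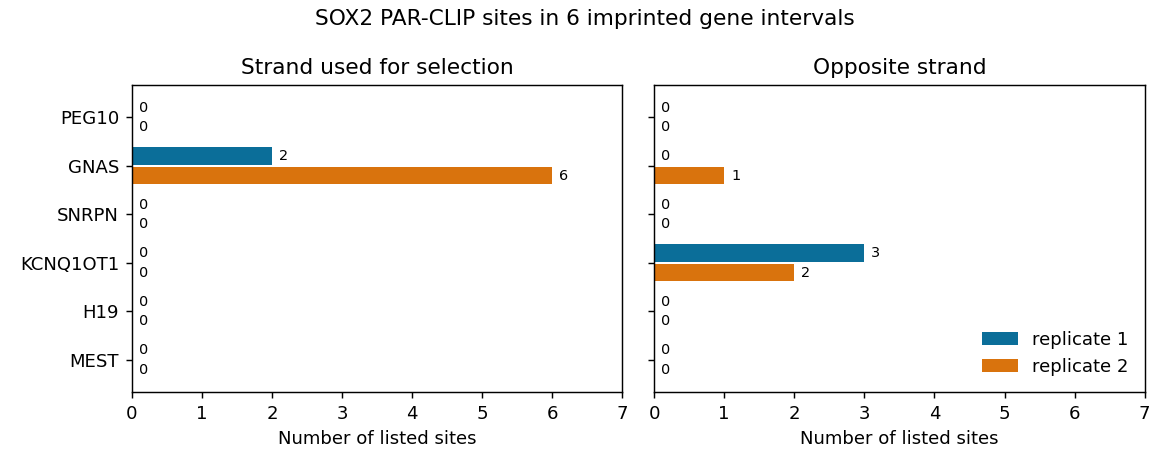
Number of listed sites (horizontal axis) in each of the 6 intervals, on the strand used for the selection (left panel) and on the opposite strand (right panel), with 1 bar per replicate. On the selected strand, sites were listed only for GNAS, with 2 in replicate 1 and 6 in replicate 2; on the opposite strand they were listed for KCNQ1OT1 and GNAS.

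The upstream of the replicate 1 sites in GNAS covered chr20:57475367-57475387, measured 21 nt and scored 177. The score is the submitters' whole number per site, of at least 5, and the labels do not say what it counts. This score was higher than that of 91.6% of the replicate 1 list. Its partner in replicate 2 covered chr20:57475355-57475374, measured 20 nt and scored 47, above 81.0% of its list. These sites had 8 nt in common, and their starts and ends differed by 12 and 13 nt. Over all 3636 pairs of overlapping sites the median overlap was 14 nt, and starts and ends each differed by a median of 3 nt. The upstream GNAS pair therefore overlapped less closely than most pairs, covering 38.1% of the replicate 1 site and 40.0% of the replicate 2 site.

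The downstream site of replicate 1 covered chr20:57484427-57484452, measured 26 nt and scored 208, above 92.8% of its list. Its partner in replicate 2, at chr20:57484429-57484442, was 14 nt long and lay wholly inside it. That partner scored 165, above 96.1% of its list, and was the strongest GNAS site of replicate 2. The starts of this pair differed by 2 nt and the ends by 10 nt, where the median over all pairs was 3 nt for each. The 14 nt in common covered 53.8% of the replicate 1 site. The strongest GNAS sites of the 2 experiments thus overlapped, 2.56 kb from the downstream edge of the interval.

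The downstream pair was close in score, with a ratio of replicate 1 to replicate 2 of 1.26, or 0.33 on the log2 scale. For the upstream pair the ratio was 3.77, or 1.91 on the log2 scale. Over all pairs the log2 ratio had a median of 0.21, with quartiles of -0.72 and 1.02. The downstream pair fell between these quartiles, and the upstream pair lay above the upper one, with a lower ratio in 93.2% of all pairs. Each library gives 1 value per site, so neither difference was tested.

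**Figure D2:**
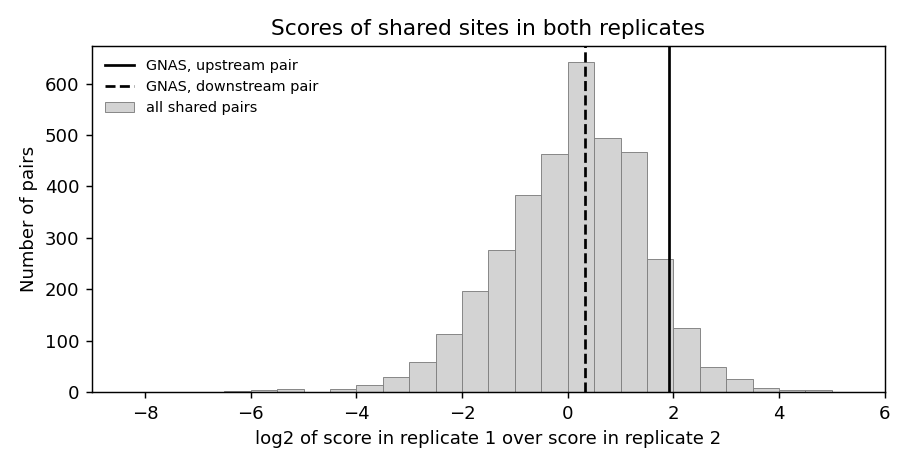
Distribution over all 3636 pairs of overlapping sites of the log2 ratio of the score in replicate 1 to that in replicate 2 (horizontal axis), as the number of pairs per bin. The vertical lines mark the GNAS pairs, at 0.33 for the downstream and 1.91 for the upstream pair.

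The other 4 GNAS sites were listed in replicate 2 alone, with scores of 10 to 20 around or below the list's median of 19. They covered chr20:57473787-57473802 with a score of 10, chr20:57476550-57476563 with a score of 10, chr20:57477152-57477166 with a score of 17, and chr20:57478798-57478816 with a score of 20. Between 7.1% and 50.6% of the replicate 2 list scored lower than these sites, and their lengths of 14 to 19 nt were near the list's median of 17 nt. The closest replicate 1 site on the strand lay 1162 to 3410 nt away from them. Scores of 10 or less made up 5.24% of the replicate 1 list and 14.0% of the replicate 2 list, so scores as low as those of the 2 sites at 10 were less common in replicate 1 as a whole.

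All 8 GNAS sites lay within 13.21 kb of the downstream edge of the interval. Replicate 1 sites spanned 9.09 kb and replicate 2 sites 10.66 kb, and the first 59.8 kb of the interval on the plus strand held none. Within the populated part, replicate 2 sites followed each other at gaps of 588 to 5612 nt. Flanks of 73 kb on either side of the interval held 0 sites on the plus strand in both replicates. The nearest plus-strand site outside lay 80.0 kb away in replicate 1 and 74.2 kb away in replicate 2, both on the downstream side. In replicate 2 this site lay just beyond the 73 kb flank. Empty flanks are the usual case in these lists: 82.6% of the 73 kb windows on 1 strand held no site of either list. Those windows include stretches without genes. No annotation on hg19 was used here, so the sites were not assigned to exons, introns or a particular GNAS transcript.

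**Figure D3:**
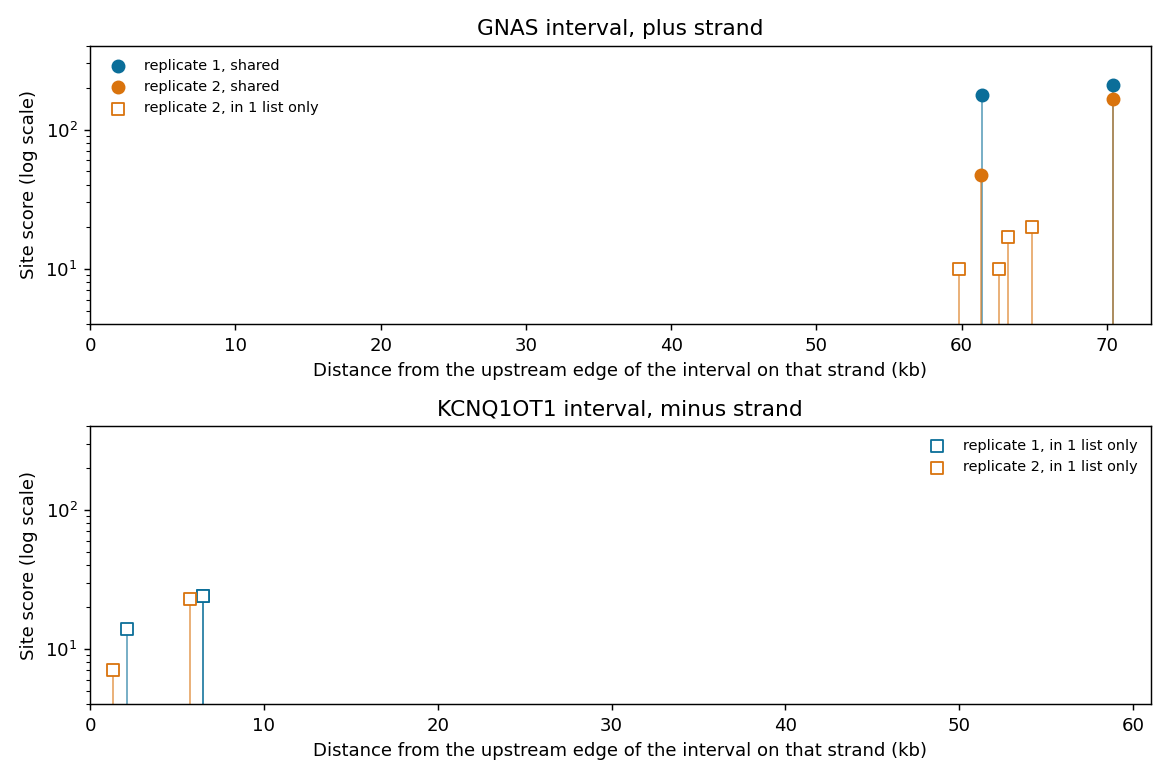
Site score (vertical axis, log scale) against distance in kb from the upstream edge of the interval, for the plus strand of the GNAS interval (top) and the minus strand of the KCNQ1OT1 interval (bottom). Filled circles are sites shared between replicates and open squares are sites of 1 list; GNAS sites began 59.8 kb into the interval, and KCNQ1OT1 sites ended 6.51 kb into it, where the 2 replicate 1 sites with a score of 24 coincide at this scale.

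Sharing between replicates rested on the strong GNAS sites. Sites of the 2 lists that overlapped by 1 nt or more on their strand were called shared. In replicate 1, 2 of 2 GNAS sites were shared (95% Wilson interval 34.2 to 100%), where 21.3% of all replicate 1 sites were. In replicate 2, 2 of 6 were shared (33.3%, interval 9.68 to 70.0), where 6.50% of all sites were. Sharing rises with score in these lists, and the GNAS sites were not average in score. Of all sites with scores of at least 100 and below 500, to which both replicate 1 sites in GNAS belong, 46.7% (44.5 to 48.8) were shared. That value lies inside the GNAS range of 34.2 to 100%, but with 2 sites this says little. In replicate 2 the share over the list in the same score range was 25.8%, where GNAS had 1 shared site of 1. It was 8.06% for scores of at least 20 and below 100, where GNAS had 1 of 2, and 1.95% for scores below 20, where GNAS had 0 of 3. With at least 50% of both sites required to overlap, the upstream pair was no longer shared, which left 1 of 2 sites in replicate 1 and 1 of 6 in replicate 2. Sites of 1 locus share their RNA, so no test was made, and the intervals cover counting error only.

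GNAS was denser in sites than the lists on average, but it is a small part of the genome and of the total score. It was also the only selected interval with member sites, so its density does not describe the selected genes as a set. GNAS held 0.0274 sites per kb in replicate 1, against 0.00278 per kb of strand over that whole list. In replicate 2 it held 0.0822 sites per kb, against 0.00917 over the list; these averages include stretches without genes. The sum of its scores was 385 in replicate 1 and 269 in replicate 2, or 0.00718% and 0.00518% of the score sums of the lists. Without the 10 strongest sites of each list, the mean share was 0.0129% instead of 0.00618%. The median score of the 6 replicate 2 sites in GNAS was 18.5, against 19 for the rest of that list, with 3 of the 6 above the list's median. In replicate 1 both GNAS scores were above the list's median of 26.

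**Figure D4:**
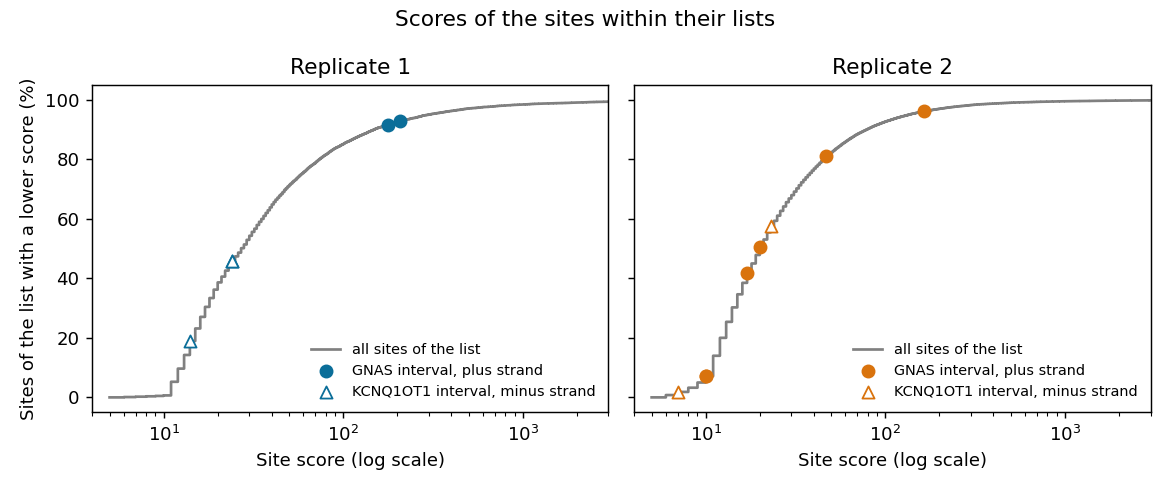
Percentage of the sites of a list with a lower score (vertical axis) against site score (horizontal axis, log scale), for replicate 1 (left) and replicate 2 (right). The grey line is the whole list, circles are GNAS sites and triangles are minus-strand sites of the KCNQ1OT1 interval; GNAS sites in replicate 1 stood at 91.6% and 92.8%, while those of replicate 2 ran between 7.1% and 96.1%.

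For KCNQ1OT1, the strand used for the selection was not that of the RNA. The selection took the plus strand of chr11:2661001-2722000, while the GENCODE annotation of GRCh38 places KCNQ1OT1 on the minus strand and KCNQ1 on the plus strand. For the other 5 genes the selected and the annotated strands were the same. The plus strand of the interval, the direction of KCNQ1, held 0 sites in both replicates. The minus strand, the direction of KCNQ1OT1, held 3 sites in replicate 1 and 2 sites in replicate 2. Windows of 61 kb with at least 1 site in both lists made up 7.08% of 99352, those with at least 3 replicate 1 sites 1.80%, and those with at least 2 replicate 2 sites 8.49%.

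The minus-strand sites of the KCNQ1OT1 interval were not shared and scored 7 to 24, where the list medians were 26 in replicate 1 and 19 in replicate 2. Most listed sites with such scores were not shared either. For scores below 20, 7.35% of the replicate 1 list and 1.95% of the replicate 2 list were shared. For scores of at least 20 and below 100 the shares were 24.1% and 8.06%. With 3 and 2 sites, the lack of sharing therefore says little about this interval. In replicate 1 they covered chr11:2715488-2715501 and chr11:2715514-2715528, with a score of 24 each and 12 nt between them, and chr11:2719885-2719899, with a score of 14. In replicate 2 they covered chr11:2716257-2716271 with a score of 23 and chr11:2720650-2720669 with a score of 7. Depending on the site, 18.9% or 45.8% of the replicate 1 list and 1.8% or 57.5% of the replicate 2 list scored lower. No site of 1 replicate touched a site of the other, and the closest ones were 728 and 750 nt apart. All 5 nevertheless lay within 6.51 kb of the upstream edge of the 61 kb interval on the minus strand, the side from which the antisense RNA is transcribed. The remaining minus-strand stretch of the interval and the 61 kb flanks on either side held 0 sites in both lists. Such flanks are usual, as 84.4% of the 61 kb windows on 1 strand held no site of either list. Both lists thus had sites in this part of the interval, at different positions. How often unshared sites of the 2 lists lie this close elsewhere was not tested.

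The opposite strand of GNAS held 1 site, in replicate 2, at chr20:57414894-57414909 on the minus strand with a score of 14. It lay 0.90 kb from the lower edge of the interval, far from the plus-strand sites at the other end. Replicate 1 had no minus-strand site in the interval, but it listed one 4.3 kb below the lower edge with a score of 29. GNAS-AS1, a noncoding RNA antisense to the GNAS locus, is annotated on the minus strand; neither site was assigned to it for want of an annotation on hg19.

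No site was listed on either strand of the PEG10, SNRPN, H19 and MEST intervals in either replicate. Most windows of these lengths held no site of either list. Each window covers 1 strand only, and the windows include stretches without genes. They therefore set a low level for both strands of a gene. At least 1 site of either list was found in 6.58% of windows of 15 kb, the length of the PEG10 interval. The figure was 26.7% for the 156 kb of SNRPN, 2.57% for the 4 kb of H19 and 8.20% for the 21 kb of MEST. It was 17.4% for the 73 kb of GNAS and 15.6% for the 61 kb of KCNQ1OT1. This percentage rose with window length, so it was highest for SNRPN, the longest of the empty intervals. The lists hold sites with scores of at least 5, so 0 sites does not show that SOX2 made no contact with these RNAs. Whether these genes were expressed in the cells was not measured.

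The surroundings of the empty intervals differed in how far they were from any listed site on the selected strand. The lists are sparse, with 0.00278 sites per kb of strand in replicate 1 and 0.00917 in replicate 2. Long distances are therefore common, above all in replicate 1, and whether those given here are unusual was not tested. For SNRPN (hg19 chr15:25068001-25224000, plus strand) the nearest site lay 2112.6 kb away in replicate 1 and 2098.9 kb away in replicate 2. For MEST (chr7:130126001-130147000, plus strand) the distances were 811.2 and 351.7 kb. For PEG10 (chr7:94285001-94300000, plus strand) they were 977.5 and 196.6 kb, and for H19 (chr11:2016001-2020000, minus strand) 245.0 and 235.2 kb. On the opposite strand the nearest sites in replicates 1 and 2 were 387.6 and 31.9 kb away for H19, and 54.9 and 734.7 kb away for PEG10. For MEST these distances were 86.8 and 75.0 kb, and for SNRPN they were 351.1 and 349.4 kb. Flanks of the interval's own length held 0 sites on either strand for all 4 genes in both replicates. Most windows of these lengths held none either, so this says little.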

How the data were processed

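PAR-CLIP sites from 2 libraries of 1 group were analysed. The authors deposited 1 list per library with 6 columns and no header: chromosome, start, end, name, score and strand. The deposited score is a whole number per site. Neither the labels nor the files say what it counts or how sites were called. Per the submitters' processing notes, bcl2fastq and Bowtie 1.1.2 were used with hg19. Read depth is unknown; the score sum was 5365592 for replicate 1 and 5192778 for replicate 2. Low-abundance RNAs may therefore be missed. Per the labels' protocols, libraries were amplified with 18 PCR cycles; no molecular identifiers are mentioned, so intervals and counts cover counting error over sites only.

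Members were sites overlapping the 6 intervals on the given strand. The intervals, genes and comparisons were chosen with earlier results of these data known. The named sites were, per locus, the shared pairs (up to 5) and the strongest site of each replicate; the other sites of GNAS and KCNQ1OT1 were named because they are few, after their values were seen. Positions count from 1. GENCODE 29 is on GRCh38, so it gave gene names and strands only, and no site sequence was read. Overlaps, 95% Wilson intervals and windows were computed in Python 3.11.15 with numpy 2.4.6, pandas 2.3.3 and scipy 1.17.1. A site was counted in the window that held its midpoint. Overlap calls were checked on simulated lists with known partners. Alternatives were a 50% reciprocal overlap, a gap of 50 nt, strand ignored, a score of at least 20, intervals widened by 5 kb, the opposite strand for KCNQ1OT1, score sums without the 10 strongest sites, and leaving out each interval or replicate.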

Additional observations from a re-analysis of the deposited data

How the results depend on the processing

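The number of member sites, 8 over both lists, was 5 with a score of at least 20 and 13 with the opposite strand for KCNQ1OT1. It was 8 with intervals widened by 5 kb, and leaving out a replicate gave 2 to 6. The mean share of the score sum, 0.00618%, was 0.0129% without the 10 strongest sites of each list and 0.00518% to 0.00718% when a replicate was left out. The shared percentage stayed inside the Wilson interval of its replicate under the 9 alternatives run for each. Alternatives that left out an interval without member sites could not move this percentage. It ranged from 50.0% to 100% in replicate 1, and from 16.7% with a 50% reciprocal overlap to 66.7% with a score of at least 20 in replicate 2. With intervals this wide, from 2 and 6 sites, that says little. Without the GNAS interval no site was left, so that alternative gave no value. The list of further imprinted genes was not run for want of an hg19 annotation. No paired analysis was possible because both libraries belong to 1 group. How far the unknown depth limits weak sites and empty intervals was not measured.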
